A study of Mus musculus with 28 samples.

Results

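The comparison described here set the epidermis of older XX mice with a conditional knockout (cKO) of Kdm6a against that of older XX controls, across every measured gene. Its members were 4 of the 28 samples of the series, chosen as the per-library columns that the authors' table of older XX animals names. Both cKO samples were genotyped Cre+; Utx fl/fl and both control samples Cre-; Utx fl/fl, Utx being the other name of Kdm6a. By these labels all 4 carried 2 floxed Kdm6a alleles, and the groups differed by the Krt14-Cre transgene. The study used this transgene to delete the gene in tissues that express keratin 14. Whether both cKO samples had 2 X chromosomes, and so 2 alleles, was not tested. The keratin 14 promoter acts in keratinocytes of the basal epidermis and of its appendages, so melanocytes, immune cells, vessels, fat and muscle that come with the tissue keep the gene. The titles of the authors' tables say aged and young, and aged is called older here. The age itself is not given in the sources used here. The young XX libraries set beside them carry the same genotypes, Cre+; Utx fl/fl in 5 cKO and Cre-; Utx fl/fl in 4 control samples, and the 6 older XY libraries are Cre+; Utx fl/Y in 3 cKO and Cre-; Utx fl/Y in 3 control samples. Nothing in the labels states that the samples came from separate animals, so the p-values measure the spread between these samples, which may be technical.

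Values are the authors' normalized read counts per gene, which are scaled for depth and not for gene length. The 4 libraries held normalized sums of 29828519 to 31147915 and, judged from the step between their low values, about 29100995 to 32110813 reads, with between 17525 and 17840 genes above 0. The libraries held the defining markers of epidermis. Krt5 of the basal layer had 317343 and 283030 in cKO libraries, against 267988 and 295891 in control libraries. Krt10 of the layers above had 463949 and 438937 in cKO libraries, against 481894 and 486814 in control libraries. The other defining markers, Krt1, Krt14 and Trp63, had log2 changes of 0.94, 0.47 and 0.11. Of 16 epidermis identity genes none passed the test in limma. The authors' deposited table of this comparison called 1 of 12 as higher, against 4.50% of all its genes with an adjusted p called in either direction. Both libraries labelled older XX cKO stood apart from the other XX libraries in 1 respect that bears on every result below. Xist, the RNA that coats the inactive X chromosome, had 17.1 and 14.4 in cKO libraries, against 20923 and 18431 in control libraries. The young XX libraries had 6239 to 12511 in 5 cKO samples and 6921 to 10111 in 4 controls, and the 6 older XY libraries 5.69 to 59.0. Reads of the Y chromosome (Kdm5d, Uty, Eif2s3y and Ddx3y) were at 2.07 or less per gene in all 4 older XX libraries, against 436 to 2509 in the older XY libraries. Which sex chromosomes the cells of the 2 cKO samples carried was not tested, and no older XX cKO library with Xist exists in the table, so the loss of Kdm6a and the lack of Xist cannot be told apart in this comparison.

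Kdm6a encodes a demethylase that removes methyl groups from lysine 27 of histone H3, a mark laid down by the Polycomb enzymes Ezh1 and Ezh2, and it works within the complexes of Kmt2c and Kmt2d, which methylate lysine 4 of the same histone at enhancers. It lies on the X chromosome and is one of the genes that stay active on the inactive X. The epidermis renews from a basal layer whose cells move up, build a cornified envelope from loricrin, small proline-rich and late cornified envelope proteins crosslinked by transglutaminases, and fill the spaces between cells with ceramides, cholesterol and fatty acids.

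The promoters of 5 genes on which the results turn are printed first, from RefSeq (GRCm38.p6), each from 250 bases before to 50 bases after a transcription start, 5′ to 3′ on the gene's strand. Xist is shown as the transcript that nearly vanished. Cyp2w1 and Rab27a are shown as falls that held whichever library was left out. Lce1d and Lce1e are shown as neighbouring paralogs of the cornified envelope that fell together. Capitals mark matches of the TATA box motif, which is TATAAA, and of the GC box motif, which is GGGCGG. Both were searched on both strands, as was TGANTCA.
Xist, chrX:103483184-103483483, minus strand: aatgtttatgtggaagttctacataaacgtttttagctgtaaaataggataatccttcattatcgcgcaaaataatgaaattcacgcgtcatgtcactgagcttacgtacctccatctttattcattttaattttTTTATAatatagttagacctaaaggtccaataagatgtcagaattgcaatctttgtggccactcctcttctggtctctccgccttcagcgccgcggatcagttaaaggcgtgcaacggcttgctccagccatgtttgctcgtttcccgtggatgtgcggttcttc
Cyp2w1, chr5:139352366-139352665, plus strand: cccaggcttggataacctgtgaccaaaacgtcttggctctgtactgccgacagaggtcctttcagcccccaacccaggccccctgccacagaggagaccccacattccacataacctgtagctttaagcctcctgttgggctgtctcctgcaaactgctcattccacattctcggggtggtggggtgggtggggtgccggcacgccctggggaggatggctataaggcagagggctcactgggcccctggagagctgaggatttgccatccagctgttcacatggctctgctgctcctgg
Rab27a, chr9:73044560-73044859, plus strand: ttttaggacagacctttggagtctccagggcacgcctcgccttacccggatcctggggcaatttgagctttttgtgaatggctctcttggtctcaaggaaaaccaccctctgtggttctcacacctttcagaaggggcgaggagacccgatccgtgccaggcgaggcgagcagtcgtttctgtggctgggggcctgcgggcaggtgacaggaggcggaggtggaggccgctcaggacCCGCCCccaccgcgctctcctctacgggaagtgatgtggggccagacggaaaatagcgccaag
Lce1d, chr3:92687161-92687460, minus strand: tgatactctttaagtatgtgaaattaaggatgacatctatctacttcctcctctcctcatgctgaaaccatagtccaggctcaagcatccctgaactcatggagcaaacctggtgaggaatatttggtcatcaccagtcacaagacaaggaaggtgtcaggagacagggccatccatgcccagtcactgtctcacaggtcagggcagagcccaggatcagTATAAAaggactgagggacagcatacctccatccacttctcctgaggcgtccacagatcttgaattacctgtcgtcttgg
Lce1e, chr3:92709025-92709324, minus strand: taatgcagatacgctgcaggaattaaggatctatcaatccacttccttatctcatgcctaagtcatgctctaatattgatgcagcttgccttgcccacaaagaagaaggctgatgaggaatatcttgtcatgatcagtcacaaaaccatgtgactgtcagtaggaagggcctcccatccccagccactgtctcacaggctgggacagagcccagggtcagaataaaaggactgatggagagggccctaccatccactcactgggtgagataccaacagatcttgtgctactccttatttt
A TATAAA match began at base -30 from the start of Lce1d and, on the opposite strand, at base -115 from that of Xist, and 13.6% of 32851 mouse promoters of this length hold the motif. A GGGCGG match lay on the opposite strand of the Rab27a window from base -13, and 35.7% of promoters hold it. The AP-1 motif TGANTCA was in none of the 5 windows and is in 7.81% of promoters. The windows of Rab27a and Xist held 18 and 15 CG pairs, those of Cyp2w1, Lce1d and Lce1e 5, 2 and 1, and the median over all promoters was 7. Lce1d and Lce1e were identical at 205 of 313 aligned columns (65.5%). No result below tests these motifs.

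Kdm6a itself (chromosome X, 18162575 to 18279936) had 1373 and 1299 in cKO libraries, against 3367 and 2852 in control libraries. Both cKO libraries lay below both controls, and the means were 1336 ± 52.4 in cKO and 3109 ± 364 in control libraries (SD, n = 2 each). The log2 change was -1.21 (SE 0.12, adjusted p = 0.0258 in limma). An exact two-sided permutation test of this gene alone gave p = 0.333, the smallest that 2 samples against 2 allow. Gene-level counts do not separate the floxed exon from the rest of the gene, and tissue of other cell types is included, so the remaining value does not measure how many keratinocytes kept the gene. In bulk tissue, fewer cells of a type and less RNA per cell cannot be told apart, here and in every result below.

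Of 23 tested enzymes and partners of H3K4 and H3K27 methylation, Kdm6a alone passed the test. The list had a median log2 change of 0.04, against 0.00346 over all tested genes. Kdm6b, the autosomal relative of Kdm6a, had 3449 and 3434 in cKO libraries, against 3531 and 4985 in control libraries (log2 change -0.29, SE 0.17, adjusted p = 0.516). Kdm5c, an X-linked H3K4 demethylase, had 4430 and 4855 in cKO libraries, against 6167 and 6355 in control libraries (log2 change -0.43, SE 0.10, adjusted p = 0.114). Ezh2 had 1410 and 1431 in cKO libraries, against 1295 and 1186 in control libraries (log2 change 0.20, SE 0.10, adjusted p = 0.469). Kmt2d had 12411 and 12544 in cKO libraries, against 12662 and 12755 in control libraries (log2 change -0.03, SE 0.10, adjusted p = 0.946). Kdm5c thus had a lower value in each cKO library than in either control without passing, while the Kmt2d values of all 4 libraries lay close together. Of all tested genes 44.3% had no overlap between the groups.

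Of the 98 called genes 4 lie on the X chromosome, and the largest change of the whole comparison is among them. Xist (chromosome X, 103460366 to 103483254) fell by 10.20 on the log2 scale (SE 0.15, adjusted p = 4.72e-06). Its level in the cKO libraries was of the size seen in XY libraries, and the call held under every alternative setting, at adjusted p-values up to 0.00233. Tsix, which is transcribed across Xist on the other strand, had 20.2 and 16.4 in cKO libraries, against 32.6 and 39.2 in control libraries. Jpx, an activator of Xist, had 40.4 and 34.8 in cKO libraries, against 63.5 and 54.3 in control libraries; neither passed (adjusted p = 0.330 and 0.419). Ftx, Rlim, Chic1 and Nap1l2 of the same centre were also not called, with log2 changes of 0.11, -0.08, 0.70 and -0.91.

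Of 18 listed genes that escape X inactivation, Kdm6a and Xist fell and 16 did not pass. Eif2s3x, a translation initiation factor subunit, had 5751 and 5481 in cKO libraries, against 8230 and 7855 in control libraries (log2 change -0.52, SE 0.09, adjusted p = 0.0783). Mid1, a ubiquitin ligase bound to microtubules, had 1143 and 1068 in cKO libraries, against 1576 and 1862 in control libraries (log2 change -0.63, SE 0.12, adjusted p = 0.0896). For both genes, as for Kdm5c, each cKO library lay below each control, while 44.3% of all tested genes had no overlap between the groups. Ddx3x, an RNA helicase, had 19098 and 18666 in cKO libraries, against 21327 and 19834 in control libraries (log2 change -0.12, SE 0.11, adjusted p = 0.693), with groups that also did not overlap. Usp9x and Utp14a went the other way without passing, with log2 changes of 0.14 and 0.07. In the authors' deposited table of this comparison, which tests the same 4 libraries, Eif2s3x, Mid1 and Kdm5c had adjusted p-values of 0.000662, 0.00332 and 0.0145.

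The X chromosome as a whole had slightly higher values in the cKO libraries. Its 481 tested genes had a median log2 change of 0.090, and 320 of them (66.5%) were above 0, against 50.8% of all tested genes. The medians of the 19 autosomes ran from -0.0322 to 0.0353, with 43.8% to 57.2% of genes above 0. Each of the 4 pairings of a cKO with a control library gave an X median between 0.080 and 0.099. Another measure moved less evenly: the median of X-linked over autosomal log2 levels was -0.206 and -0.0787 in cKO libraries, against -0.237 and -0.215 in control libraries. The young XX comparison, whose cKO libraries have Xist, had nearly the same X median, 0.0904, over 448 genes. The young comparison has Xist on both sides, and the older one lacks it on the cKO side only. Whether the lack of Xist bears on the X median was not tested.

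**Figure D1:**
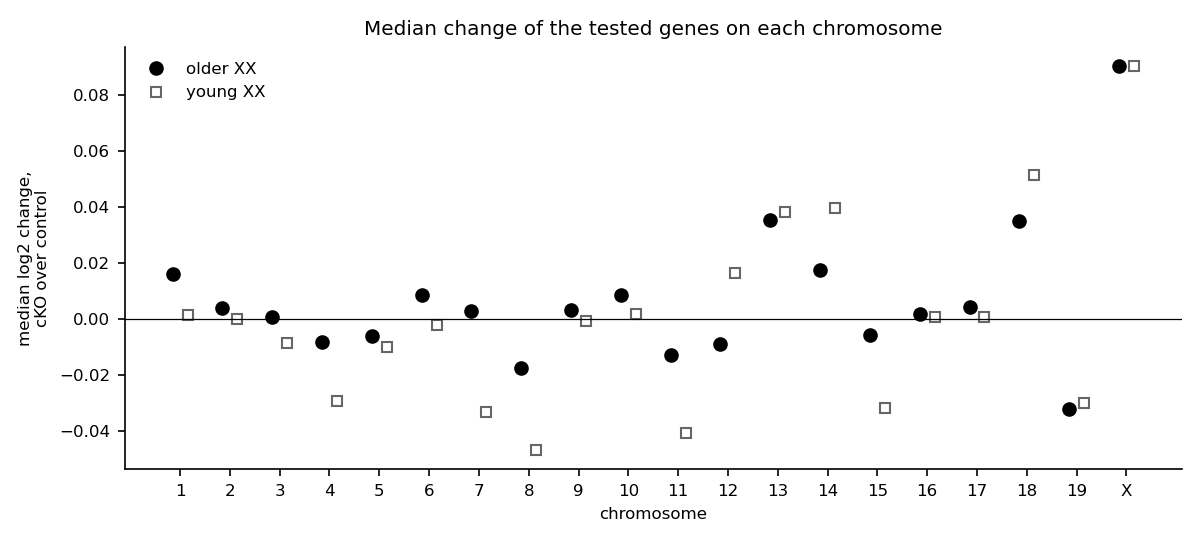
Median log2 change (cKO over control, vertical axis) of the tested genes on each chromosome (horizontal axis), as filled circles for the older and open squares for the young XX comparison. The X chromosome stands highest at both ages, at 0.090 in older and 0.0904 in young XX epidermis, and the autosomes stay within -0.0322 and 0.0353 in the older comparison.

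Only 4 X-linked genes passed the test, 0.832% of those tested, against 0.669% of all tested genes. Besides Xist and Kdm6a, Efhc2 rose and Zfp185 fell. Efhc2 (chromosome X, 17132049 to 17319368), which encodes an EF-hand protein of the ciliary axoneme, had 248 and 175 in cKO libraries, against 1.93 and 7.04 in control libraries (log2 change 5.43, SE 0.55, adjusted p = 0.0273). It lies 843 kb from Kdm6a, and the other 3 tested genes within 1.5 Mb of Kdm6a had positive log2 changes without passing: 2.30 for Ndp, 0.23 for Fundc1 and 0.21 for Maob. Ndp, the Norrin growth factor gene, had 72.1 and 65.3 in cKO libraries, against 7.67 and 22.1 in control libraries. Efhc2 and Ndp also rose in young XX epidermis, by log2 changes of 3.98 (adjusted p = 0.00492) and 1.45 (adjusted p = 0.0474). Zfp185, a LIM-domain protein bound to actin, had 2241 and 2207 in cKO libraries, against 3519 and 3833 in control libraries (log2 change -0.72, SE 0.10, adjusted p = 0.0436); its call was lost without any 1 of the 4 libraries, at adjusted p-values of 0.0801 to 0.151. The call of Efhc2 was lost without either cKO library, with a highest adjusted p of 0.0609.

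Across the whole table, 98 of 14652 tested genes passed at an adjusted p below 0.05 in limma (0.669%). Of these, 25 rose (0.171%) and 73 fell (0.498%), and 2099 genes (14.3% of those tested) had an unadjusted p below 0.05. The median log2 change was 2.30 among the risen and -1.38 among the fallen genes. Groups did not overlap for any of the 98, and they did not overlap for 44.3% of all tested genes. The numbers called depended on single libraries: 99 genes passed without cKO replicate 1, 58 without cKO replicate 2, 74 without control replicate 1 and 66 without control replicate 2. Of the 98 calls, 20 were made in all 4 of these fits and 33 in none of them. Those in all 4 were Kdm6a, Xist, Gh, Cyp2w1, Tgm7, Sardh, Cbr2, Unc79, Fhod3, Rab27a, Aldh3b2, Snurf and Snrpn among genes named by the rule for this text, and Rab15, Gldc, Serpina3b, Sult5a1, Slc6a19, Kcnj15 and Frem2 beside them, which were chosen after their values were seen. In the authors' deposited table, which as used here runs in alphabetical order to the olfactory receptor genes, 417 of 9264 genes with an adjusted p were below 0.05 (4.50%). Those included all 58 of the genes called here for which it gives one.

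**Figure D2:**
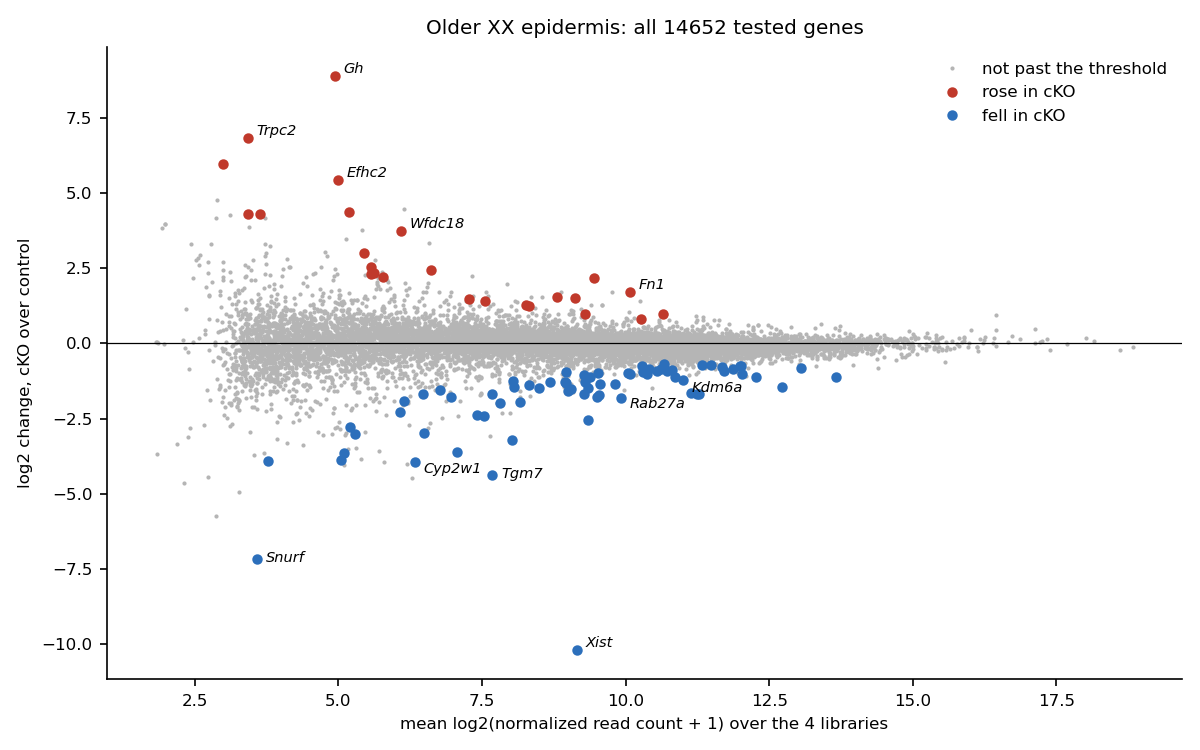
Log2 change (cKO over control, vertical axis) against mean log2(normalized read count + 1) over the 4 libraries (horizontal axis) for all 14652 tested genes, with the 25 that rose and the 73 that fell coloured. Gh at 8.90 and Xist at -10.20 are the extremes, and 53 of the 73 fallen genes have log2 changes below -1.

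The largest rise belonged to Gh (chromosome 11, 106300271 to 106301865), the growth hormone gene, whose known site of expression is the pituitary. It had 820.2 and 541 in cKO libraries, against 0.955 and 0 in control libraries. The log2 change was 8.90 (SE 0.47, adjusted p = 0.00718 in limma). With about 1 read in the controls, this size depends on the 1 added before the log. The same gene had 342 to 405 in the 5 young XX cKO libraries, against 0 to 2.58 in the 4 young controls, so it followed the Cre label in all 13 XX libraries. None of the other 33 tested genes within 1.5 Mb of Gh passed, and 18 of them were above 0. In older XY epidermis Gh had 866, 0 and 843 in 3 cKO libraries, against 0.948, 2443 and 559 in 3 control libraries, so it did not follow the label there. Some Cre transgenes carry growth hormone gene sequence downstream of Cre, and whether reads of such a sequence are counted here was not tested. Of 24 tested growth hormone and IGF genes, Gh rose, Igfbp3 and Irs2 fell, and 21 did not pass (median log2 change 0.06, range -1.91 to 8.90). Of the 24, 7 had an unadjusted p below 0.05 in limma, against 14.3% of all tested genes. Igfbp3, which binds insulin-like growth factors outside the cell, had 2967 and 3794 in cKO libraries, against 6945 and 7542 in control libraries (log2 change -1.11, SE 0.14, adjusted p = 0.0391). Irs2, an adaptor of the insulin receptor, had 2390 and 2469 in cKO libraries, against 4151 and 5161 in control libraries (log2 change -0.93, SE 0.13, adjusted p = 0.0475). The receptor gene Ghr had 2367 and 2249 in cKO libraries, against 2174 and 1992 in control libraries (log2 change 0.15, SE 0.10, adjusted p = 0.580). Socs2, a feedback inhibitor of its signal, had 217 and 170.2 in cKO libraries, against 93.9 and 52.6 in control libraries (log2 change 1.44, SE 0.33, adjusted p = 0.117). The call of Igfbp3 was lost without either control (adjusted p up to 0.0874) and that of Irs2 without any library but control replicate 1 (up to 0.0991).

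The next 4 genes that rose lie outside the interferon response list, of whose 29 tested members none passed in limma, and were not tested as a group. Gbp9, a guanylate-binding GTPase that interferon induces, had 205 and 251 in cKO libraries, against 44.4 and 38.4 in control libraries (log2 change 2.43, SE 0.24, adjusted p = 0.0273). Tgtp1, an interferon-induced GTPase with a near-identical neighbour, Tgtp2, had 34.6 and 110.9 in cKO libraries, against 0 in both control libraries; both controls were listed at 0 and no fold is given (adjusted p = 0.0388). Because reads may be split between the copies, Tgtp1 is uncertain, and Tgtp2 had 63.9 and 72.6 in cKO libraries, against 25.9 and 30.1 in control libraries. Samd9l, another interferon-induced gene, had 536 and 454 in cKO libraries, against 215 and 197 in control libraries (log2 change 1.26, SE 0.16, adjusted p = 0.0425). S100a9, a subunit of the neutrophil and keratinocyte alarmin calprotectin, had 143.4 and 88.8 in cKO libraries, against 19.2 and 18.1 in control libraries (log2 change 2.54, SE 0.35, adjusted p = 0.0478). S100a8, the other subunit, had 104 and 143.3 in cKO libraries, against 11.5 and 44.97 in control libraries (log2 change 2.36, SE 0.61, adjusted p = 0.159). The calls of S100a9 and Samd9l were lost without any 1 of the libraries (adjusted p up to 0.111 and 0.0985), and those of Gbp9 and Tgtp1 without cKO replicate 2 (adjusted p = 0.0683 and 0.109).

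The interferon response list as a whole leaned upward without a call of its own members. Of 29 tested genes 27 were above 0, their median log2 change was 0.72, and none passed after adjustment in limma. An unadjusted p below 0.05 was found for 17 of the 29, against 14.3% of all tested genes. Gbp2, a guanylate-binding GTPase, had the smallest adjusted p of the list, with 642 and 1126 in cKO libraries, against 300.2 and 221 in control libraries (log2 change 1.72, SE 0.29, adjusted p = 0.0711). Rtp4, a chaperone of membrane receptors, had the largest change, with 43.5 and 86.9 in cKO libraries, against 13.4 and 7.05 in control libraries (log2 change 2.54, SE 0.51, adjusted p = 0.0947). Oas1a, an enzyme that senses double-stranded RNA, had 219.7 and 228 in cKO libraries, against 96.6 and 47.4 in control libraries (log2 change 1.71, SE 0.35, adjusted p = 0.0972). Usp18, which damps the interferon response, had 324 and 511 in cKO libraries, against 714 and 711 in control libraries (log2 change -0.81, SE 0.22, adjusted p = 0.180), lower in each cKO library than in either control. All 8 tested genes of the Gbp family were above 0, with a median of 1.39. The median of the list stayed between 0.69 and 1.01 when each library was left out in turn. The authors' deposited table called 5 of 22 as higher and none as lower, and as used here it ends before Usp18. It called 4.50% of all its genes with an adjusted p, in either direction. Immune cell markers had smaller changes, and none passed in limma. All 14 tested T cell genes were above 0 with a median of 0.26, from 0.02 for Cd247 to 2.02 for Cd8a. Of the 14, 3 had an unadjusted p below 0.05, against 14.3% of all tested genes. The summed level of the T cell list was 6896 and 6372 in cKO, against 4734 and 5081 in control libraries. The Langerhans and myeloid list had a median of 0.07 over 18 genes. The part of immune cells in the interferon values was not tested.

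The next 6 genes rose; they are set side by side for their known roles and were not tested as a group, and other matrix and adhesion genes fell, among them Frem2 (-1.35), Vwa1 (-1.29), Cspg4 (-0.93), Mpzl2 (-0.86) and P3h2 (-0.84) by log2 change, chosen after their values were seen. Fn1, fibronectin, had 1548 and 2456 in cKO libraries, against 648 and 553 in control libraries (log2 change 1.70, SE 0.22, adjusted p = 0.0436). Crispld2, a secreted protein, had 1638 and 1348 in cKO libraries, against 239.5 and 441 in control libraries (log2 change 2.19, SE 0.29, adjusted p = 0.0425). Col14a1, a collagen that associates with fibrils, had 94.0 and 129 in cKO libraries, against 19.1 and 23.0 in control libraries (log2 change 2.34, SE 0.32, adjusted p = 0.0478). Itga8, an integrin chain that binds fibronectin, had 105 and 104 in cKO libraries, against 17.3 and 24.1 in control libraries (log2 change 2.30, SE 0.31, adjusted p = 0.0478). Vstm4, a membrane protein of the immunoglobulin family, had 122 and 110.8 in cKO libraries, against 25.9 and 23.0 in control libraries (log2 change 2.21, SE 0.28, adjusted p = 0.0416). Mcam, a cell adhesion molecule, had 1022 and 851 in cKO libraries, against 296 and 367 in control libraries (log2 change 1.50, SE 0.17, adjusted p = 0.0342). The call of Fn1 was lost without either control, that of Crispld2 without either cKO library and that of Mcam without cKO replicate 1 or control replicate 1, while Col14a1, Itga8 and Vstm4 lost theirs without any 1 library; the highest adjusted p of these 6 was 0.127. Of 17 tested fibroblast markers Fn1 rose, Sparc fell and 15 did not pass, with a median of 0.13, and Col1a1 had 159 and 226 in cKO libraries, against 152 and 167 in control libraries. Sparc, a collagen-binding matrix protein, had 1017 and 826 in cKO libraries, against 1709 and 1802 in control libraries (log2 change -0.94, SE 0.13, adjusted p = 0.0494). Its call was kept only without cKO replicate 1 (adjusted p up to 0.127 otherwise). The part of dermal cells in the rise of Fn1 was not tested.

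The remaining rises included enzymes and secreted proteins. Wfdc18, a small secreted protein with a four-disulfide core, had 307 and 199 in cKO libraries, against 24.0 and 13.1 in control libraries (log2 change 3.73, SE 0.39, adjusted p = 0.0273). Akr1c12, an aldo-keto reductase that acts on steroids and aldehydes, had 48.8 and 60.2 in cKO libraries, against 2.88 and 1.004 in control libraries (log2 change 4.31, SE 0.55, adjusted p = 0.0425). Akr1c13, its neighbour in the same cluster, had 481 and 469 in cKO libraries, against 222 and 175 in control libraries (log2 change 1.27, SE 0.18, adjusted p = 0.0480). All 5 tested Akr1c genes were above 0, and since their sequences are alike, reads could be split between them. Sult2a3, a sulfotransferase from a family of near copies, had 51.7 and 43.0 in cKO libraries, against 1.92 and 1.002 in control libraries (log2 change 4.31, SE 0.53, adjusted p = 0.0388). Outside the naming rule, Ehf, an ETS transcription factor of epithelia, had 2210 and 2296 in cKO libraries, against 1256 and 1054 in control libraries (log2 change 0.97, SE 0.12, adjusted p = 0.0388). Ackr3, a scavenger receptor for the chemokine Cxcl12, had 1711 and 1555 in cKO libraries, against 908 and 958 in control libraries (log2 change 0.81, SE 0.11, adjusted p = 0.0469); both were chosen after their values were seen. Of these calls, that of Wfdc18 was lost without cKO replicate 1, that of Akr1c12 without either cKO library, those of Sult2a3 and Ehf without any library but control replicate 1, and those of Akr1c13 and Ackr3 without any 1 library; the highest adjusted p was 0.114.

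**Figure D3:**
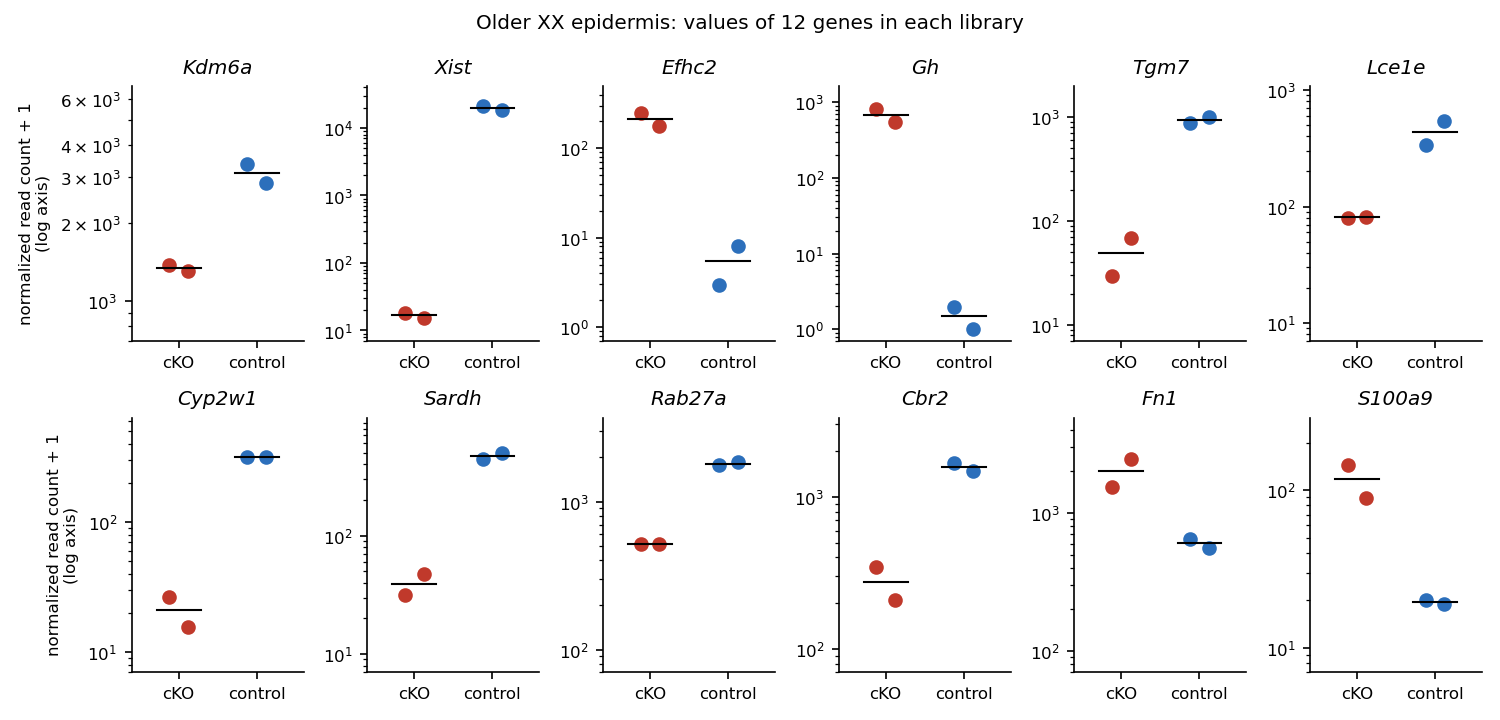
Normalized read count + 1 (log axis) in each library for 12 genes, with 2 cKO points left and 2 control points right of each panel and a line at each group's mean. The 12 were taken from the 98 called genes, none of which has overlapping groups, as is so for 44.3% of all tested genes. Rab27a has nearly equal values within each group, and Fn1 and S100a9 spread more among the cKO than among the control libraries.

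Falls were more numerous and included genes of the cornified layer. Tgm7 (chromosome 2, 121093565 to 121109795), a member of the transglutaminase family that crosslinks proteins, had 28.5 and 68.1 in cKO libraries, against 870.0 and 993 in control libraries (log2 change -4.37, SE 0.39, adjusted p = 0.0247). It was the only one of 7 tested transglutaminases (median -0.33) and of 27 suprabasal differentiation genes (median -0.10) to pass. Of 31 tested cornified envelope genes, Lce1e and Lce1d fell and 29 did not pass; 24 were below 0, and the median was -0.64. The authors' deposited table called 13 of 22 of them as lower and none as higher. It called 4.50% of all its genes with an adjusted p, in either direction. As used here it ends before the small proline-rich (Sprr) genes, whose median log2 change was 0.87, so none of these could be called as higher. Lce1e (chromosome 3, 92707401 to 92709074) had 79.2 and 80.6 in cKO libraries, against 337 and 542 in control libraries (log2 change -2.41, SE 0.26, adjusted p = 0.0335). Lce1d (chromosome 3, 92685499 to 92687210) had 379 and 402 in cKO libraries, against 1022 and 1733 in control libraries (log2 change -1.77, SE 0.24, adjusted p = 0.0480). Without cKO replicate 2 neither was called, and without cKO replicate 1 Lce1d was not; the highest adjusted p over the 4 fits was 0.0578 for Lce1e and 0.0907 for Lce1d.

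The Lce1 genes had lower values in the cKO libraries, while the other tested late cornified envelope genes, Lce3c and Lce6a, had log2 changes of -0.02 and -0.06 (adjusted p = 0.993 and 0.923). All 14 tested Lce1 genes were below 0 and had no overlap between the groups, as had 44.3% of all tested genes, with log2 changes of -2.41 to -0.44 and a median of -1.47; they lie side by side and resemble each other, so their counts may share reads. Their summed level was 39115 and 36994 in cKO libraries, against 52142 and 72473 in control libraries. Of 7 tested Sprr genes 5 were above 0, with a median of 0.87 and none called; Sprr2a1 had 750.1 and 1030 in cKO libraries, against 608 and 264 in control libraries (log2 change 1.13, SE 0.38, adjusted p = 0.258). Lor, loricrin, the main protein of the envelope, had 47867 and 38796 in cKO libraries, against 45457 and 55649 in control libraries (log2 change -0.22, SE 0.17, adjusted p = 0.649). Ivl, involucrin, had 2488 and 2325 in cKO libraries, against 2088 and 1013 in control libraries (log2 change 0.73, SE 0.31, adjusted p = 0.368). Tchhl1, a hair and filament protein in the same list, had 1.01 and 0 in cKO libraries, against 73.5 and 11.99 in control libraries, where control replicate 1 was the high library. Krt1 had 137600 and 111450 in cKO libraries, against 50358 and 82237 in control libraries (log2 change 0.94, SE 0.27, adjusted p = 0.187). Krt14 had 199836 and 142824 in cKO libraries, against 114605 and 130258 in control libraries (log2 change 0.47, SE 0.23, adjusted p = 0.442).

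Of the aldo-keto reductase and cytochrome list 4 genes fell. Cyp2w1 (chromosome 5, 139352617 to 139357033), a cytochrome P450, had 25.7 and 14.5 in cKO libraries, against 313 and 317 in control libraries (log2 change -3.96, SE 0.32, adjusted p = 0.0223). Cbr2, a carbonyl reductase, had 342 and 208 in cKO libraries, against 1660 and 1479 in control libraries (log2 change -2.55, SE 0.24, adjusted p = 0.0255). Aldh3b2, an aldehyde dehydrogenase of lipid droplets, had 1448 and 1280 in cKO libraries, against 4874 and 3823 in control libraries (log2 change -1.66, SE 0.14, adjusted p = 0.0241). Cyp2s1, a P450 of epithelia, had 440.4 and 460.3 in cKO libraries, against 978 and 983 in control libraries (log2 change -1.12, SE 0.12, adjusted p = 0.0273). Together with the 2 Akr1c genes that rose, 6 of 24 tested members of the aldo-keto reductase and cytochrome list passed, in both directions, and the median was 0.04. Of all tested genes 0.669% passed, and the list was chosen with earlier results of these data known. The calls of Cyp2w1, Cbr2 and Aldh3b2 held without any 1 library, and that of Cyp2s1 was lost without either control (adjusted p up to 0.0734).

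Most cholesterol synthesis genes had lower values in the cKO libraries, and 2 of 25 fell, Soat1 among them. Soat1, which esterifies cholesterol, had 960.1 and 908 in cKO libraries, against 1757 and 2015 in control libraries (log2 change -1.01, SE 0.11, adjusted p = 0.0354). The other 23 tested genes did not pass, while 23 of all 25 were below 0, 21 had no overlap between the groups (44.3% of all tested genes had none) and the median was -0.49. Insig1, a sterol sensor, had 2596 and 1933 in cKO libraries, against 4095 and 3961 in control libraries (log2 change -0.85, SE 0.15, adjusted p = 0.0783). The authors' deposited table called 9 of 17 of them as lower and none as higher. Of all its genes with an adjusted p it called 4.50%, in either direction. In young XX epidermis the list had a median of -0.14 over 24 genes. Its median here stayed between -0.64 and -0.41 without any 1 library, and the call of Soat1 was lost without cKO replicate 2 or control replicate 2 (adjusted p up to 0.0874).

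Barrier lipid genes had 24 of 30 members below 0, a median of -0.18 and no call in limma. Of the 30, 10 had an unadjusted p below 0.05, against 14.3% of all tested genes. The authors' deposited table called 4 of 20 as lower, against 4.50% of all its genes with an adjusted p called in either direction. Alox12e, an epidermal lipoxygenase, had 15255 and 17240 in cKO libraries, against 32972 and 24977 in control libraries (log2 change -0.82, SE 0.16, adjusted p = 0.0931). Of 20 sebaceous gland genes 17 were below 0 with a median of -0.32, and Soat1 alone passed. Fasn, fatty acid synthase, had 12935 and 11799 in cKO libraries, against 18702 and 22553 in control libraries (log2 change -0.73, SE 0.13, adjusted p = 0.0783). Outside the rule, Srd5a1, a steroid 5-alpha reductase, had 617 and 510.4 in cKO libraries, against 1309 and 1568 in control libraries (log2 change -1.35, SE 0.15, adjusted p = 0.0342). Acacb, an acetyl-CoA carboxylase, had 1070 and 1107 in cKO libraries, against 1882 and 2196 in control libraries (log2 change -0.90, SE 0.11, adjusted p = 0.0424). Of the retinoid pathway, Crabp2, which carries retinoic acid to its receptors, had 1364 and 1150 in cKO libraries, against 3020 and 2484 in control libraries (log2 change -1.13, SE 0.14, adjusted p = 0.0391), and the other 25 tested members did not pass (list median -0.21). The call of Crabp2 was lost without cKO replicate 2 or control replicate 1 (adjusted p up to 0.0704), that of Srd5a1 without cKO replicate 2 or control replicate 2 (up to 0.0640) and that of Acacb without any 1 library (up to 0.111).

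Sardh (chromosome 2, 27188393 to 27248337), the mitochondrial sarcosine dehydrogenase, had 30.3 and 46.0 in cKO libraries, against 444 and 495 in control libraries (log2 change -3.62, SE 0.26, adjusted p = 0.0165). Gldc (chromosome 19, 30098447 to 30175429), the glycine decarboxylase of the glycine cleavage system, had 399 and 302 in cKO libraries, against 1139 and 1083 in control libraries (log2 change -1.67, SE 0.16, adjusted p = 0.0273). Slc6a19, a transporter of neutral amino acids, had 311 and 274 in cKO libraries, against 917 and 851 in control libraries (log2 change -1.59, SE 0.14, adjusted p = 0.0241). The calls of these 3 held without any 1 library. Gpt2, an alanine transaminase, also fell, by 0.68 on the log2 scale, and its call was lost without any 1 library (adjusted p up to 0.171). Gldc, Slc6a19 and Gpt2 were chosen after their values were seen, and no list of amino acid genes was tested.

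Rab27a (chromosome 9, 73044854 to 73097629), which tethers melanosomes and secretory vesicles for transport and release, had 519 and 517 in cKO libraries, against 1768 and 1853 in control libraries (log2 change -1.80, SE 0.11, adjusted p = 0.00900). Rab15, a GTPase of endosome recycling that was chosen after its values were seen, had 398 and 425 in cKO libraries, against 1275 and 1415 in control libraries (log2 change -1.71, SE 0.12, adjusted p = 0.0165). No list of vesicle traffic genes was tested. Since melanosomes are moved by Rab27a, the melanocyte list is given beside it: 7 of 11 tested members were above 0, with a median of 0.48, and Dct had 789 and 998 in cKO libraries, against 670.1 and 563 in control libraries (log2 change 0.53, SE 0.16, adjusted p = 0.222). Fhod3, a formin that builds actin filaments, had 103 and 123 in cKO libraries, against 430.2 and 457 in control libraries (log2 change -1.97, SE 0.18, adjusted p = 0.0255). Unc79, a subunit of a sodium leak channel, had 61.9 and 86.1 in cKO libraries, against 376 and 401 in control libraries (log2 change -2.39, SE 0.23, adjusted p = 0.0255).

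Among secreted and signalling genes, Gpha2, a glycoprotein hormone subunit, had 135 and 53.3 in cKO libraries, against 862 and 727 in control libraries (log2 change -3.20, SE 0.41, adjusted p = 0.0425). Fam3b, a secreted cytokine-like protein, had 34.6 and 35.7 in cKO libraries, against 141 and 131 in control libraries (log2 change -1.92, SE 0.25, adjusted p = 0.0425). Pinlyp, an inhibitor of phospholipase A2, had 25.4 and 37.9 in cKO libraries, against 294 and 219 in control libraries (log2 change -2.99, SE 0.30, adjusted p = 0.0273). Otoa, otoancorin of the inner ear, had 2.03 and 3.07 in cKO libraries, against 42.0 and 64.4 in control libraries (log2 change -3.92, SE 0.51, adjusted p = 0.0425). Smco3, Trank1 and Ccdc27 also fell, with log2 changes of -3.65, -2.78 and -2.28. The calls of Otoa, Trank1 and Fam3b were lost without any 1 library, those of Gpha2 and Smco3 without either control, that of Pinlyp without control replicate 1 and that of Ccdc27 without any library but cKO replicate 1; the highest adjusted p was 0.169.

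Markers of tissue below the epidermis moved with some of the falls. Adipoq, adiponectin of fat cells, had 13.2 and 12.2 in cKO libraries, against 105 and 116 in control libraries (log2 change -3.03, SE 0.31, adjusted p = 0.0273). Adrb3, the beta-3 adrenergic receptor of fat, had 143.2 and 147 in cKO libraries, against 672 and 460.5 in control libraries (log2 change -1.93, SE 0.22, adjusted p = 0.0342). In young XX epidermis Adrb3 also fell (log2 change -2.04, adjusted p = 0.000684 in limma), while Adipoq changed by 0.01. The adipocyte list had a young median of 0.117 over 10 genes. Of 13 tested adipocyte markers 12 were below 0 with a median of -1.40, and Adipoq alone passed in limma. Their summed level was 2108 and 2812 in cKO libraries, against 3174 and 4829 in control libraries. An unadjusted p below 0.05 was found for 8 of the 13, against 14.3% of all tested genes. The authors' deposited table called 3 of 9 as lower, against 4.50% of all its genes with an adjusted p called in either direction. All 18 tested skeletal muscle markers were below 0 with a median of -1.50 and none passed, in limma or in the authors' deposited table, and none had an unadjusted p below 0.05. Their summed level was 317 and 3794 in cKO libraries, against 1276 and 7054 in control libraries, so the second sample of each group was high, and without cKO replicate 1 the median was 0.24. Endothelial markers had 9 of 11 below 0, with a median of -0.74 and none called. Of the 11, 2 had an unadjusted p below 0.05 in limma, against 14.3% of all tested genes. The call of Adipoq was lost without either control (adjusted p up to 0.0823) and that of Adrb3 without any library but control replicate 2 (up to 0.0631). The part of these tissues in the fall of Adipoq, Adrb3, Irs2 and Acacb was not tested.

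Hair shaft and matrix genes had the lowest list median, -2.62, with all 18 tested members below 0 and none called in limma. An unadjusted p below 0.05 was found for 14.3% of all tested genes and for 9 of these 18. The authors' deposited table called 5 of 15 of them as lower and none as higher. Of all its genes with an adjusted p it called 4.50%, in either direction. Control replicate 1 set this value: the summed level was 2285 and 2406 in cKO libraries, against 10794 and 3227 in control libraries, and without that control the median was -0.56. Krt27, a keratin of the inner root sheath, had 22.2 and 13.6 in cKO libraries, against 537 and 159.7 in control libraries (log2 change -4.00, SE 0.58, adjusted p = 0.0516), both controls being above both cKO libraries. Krt85, a keratin of the hair shaft, had 4.03 and 12.6 in cKO libraries, against 255 and 7.97 in control libraries (log2 change -2.53, SE 1.49, adjusted p = 0.519). Of 18 hair follicle stem cell genes 11 were above 0, none was called, and the median was 0.10. Cell cycle genes had 17 of 22 above 0 with a median of 0.14, none called and none at an unadjusted p below 0.05.

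**Figure D4:**
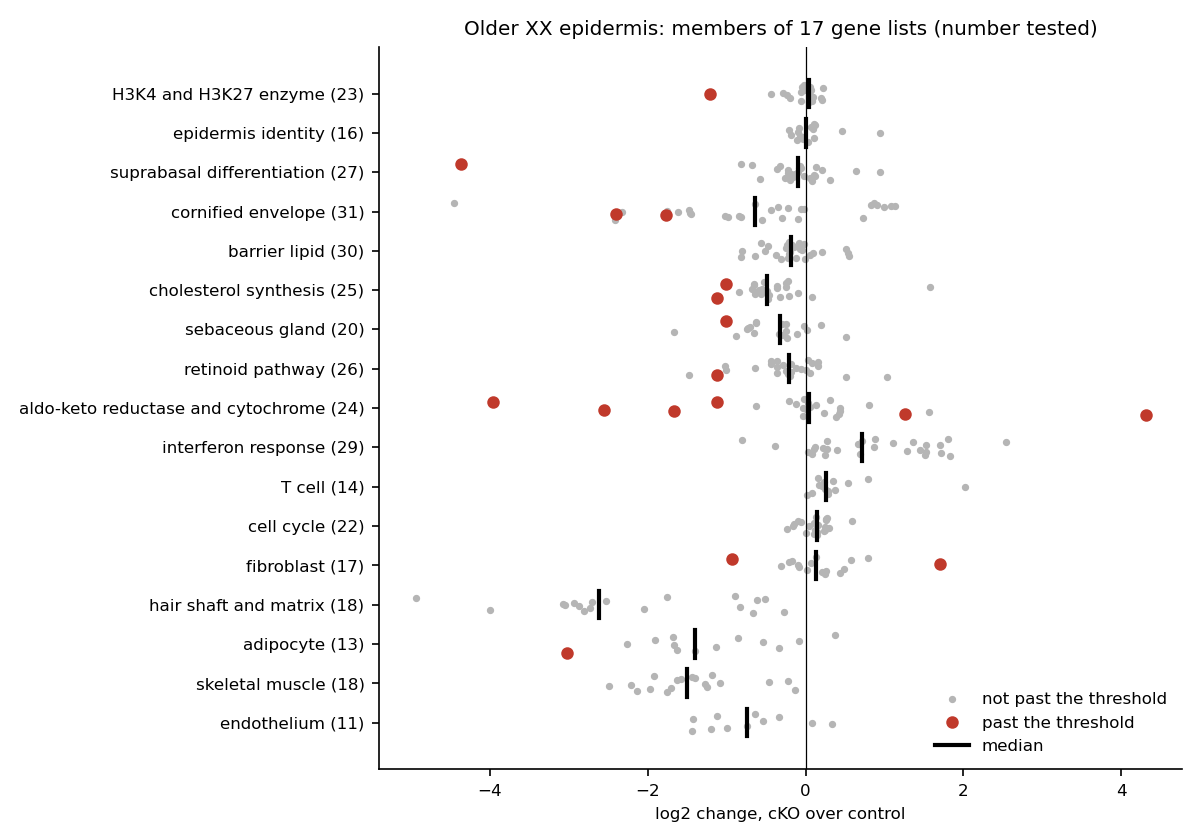
Log2 change (cKO over control, horizontal axis) of each tested member of 17 gene lists, with the number tested in brackets, members past the threshold as large points and the list median as a bar. The interferon list lies to the right with a median of 0.72, and the hair shaft, skeletal muscle and adipocyte lists to the left with -2.62, -1.50 and -1.40. The epidermis identity genes have a median of -0.0003 and run from -0.21 to 0.94.

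Of the 35 lists, 17 had at least 1 called member. Among the lists not described above, S100a9 alone passed of 20 wound and stress keratinocyte genes, which had 10 members above 0 and a median of 0.16. Krt6a and Krt16, keratins of wounded and activated epidermis, had log2 changes of -0.38 and 0.36 without passing. Igfbp3 alone passed of 16 p53 and senescence genes (median -0.03), where Cdkn1a, a cell cycle inhibitor, had 17173 and 12749 in cKO libraries, against 16565 and 15429 in control libraries. Wfdc18 alone passed of 4 tested mammary and eccrine genes (median 0.50). Of 23 imprinted genes only the overlapping pair Snrpn and Snurf passed (median 0.24), and H19, a maternally expressed RNA, had 545 and 224 in cKO libraries, against 74.2 and 71.1 in control libraries (log2 change 2.25, SE 0.41, adjusted p = 0.0787).

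Other lists held no called gene. The basal layer list had 7 of 16 genes above 0 (median -0.05), the cytokine and chemokine list 11 of 20 (median 0.07), and the immediate early and heat shock list, which tracks handling of the tissue, 7 of 21 (median -0.07). At an unadjusted p below 0.05 these lists held 5 of 16, 5 of 20 and 0 of 21 genes in limma, against 14.3% of all tested genes. The mast cell, erythrocyte and Merkel and Schwann lists had 3, 5 and 9 genes tested, with medians of 0.41, 0.05 and 0.15. Of 9 Y-linked genes none had values high enough to be tested.

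The young XX comparison of 5 cKO with 4 control libraries used other samples and shares no control with the older one. It called 547 of 13898 tested genes (3.94%), of which 214 rose and 333 fell. Of the 98 genes called in older XX epidermis 94 were tested in young XX epidermis, where 91 had the same sign (96.8%) and 64 were also called with that sign (68.1%). Over all 13792 genes tested at both ages 69.1% had the same sign. Read the other way, 535 of the 544 genes called in young XX epidermis and tested in the older had the same sign there (98.3%), 64 were called, and their median change in the direction seen in young animals was 0.69 in older and 0.98 in young XX epidermis. Side by side, the older and young log2 changes were near each other for Rab27a (-1.80 and -1.88), Unc79 (-2.39 and -2.41) and Cbr2 (-2.55 and -2.82), whose differences were not called. Kdm6a changed by -1.21 in older and -0.50 in young XX epidermis, and this difference of -0.71 did not pass (SE 0.19, adjusted p = 1.0).

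The change itself differed between the ages for 2 of 13792 genes (0.0145%) in a joint limma fit over the 13 XX libraries. An unadjusted p below 0.05 was found for 208, a smaller share than the 0.05 that no difference at all would give. A difference that did not pass in this fit therefore does not show equal changes at both ages. Xist was one, with a difference of -10.28 (SE 0.35, adjusted p = 4.87e-09): its young change was 0.07. Slc39a2 (chromosome 14, 51892889 to 51896745), a zinc transporter of the plasma membrane, was the other, with a difference of 3.42 (SE 0.37, adjusted p = 0.00383). In older XX epidermis it had 990.0 and 980.5 in cKO libraries, against 957 and 924 in control libraries, all 4 within a narrow range. In young XX epidermis it had 33.2 to 84.0 in 5 cKO libraries (median 54.4), against 521 to 625 in 4 control libraries (median 554), with no overlap. Slc39a2 overlaps Mettl17 in the annotation, and in the older table Mettl17 had 711 and 757 in cKO libraries, against 773 and 665 in control libraries. Adipoq, Irs2 and Soat1 were called in older and not in young XX epidermis, where their changes were 0.01, -0.17 and -0.20; the differences did not pass (adjusted p = 1.0 for each).

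**Figure D5:**
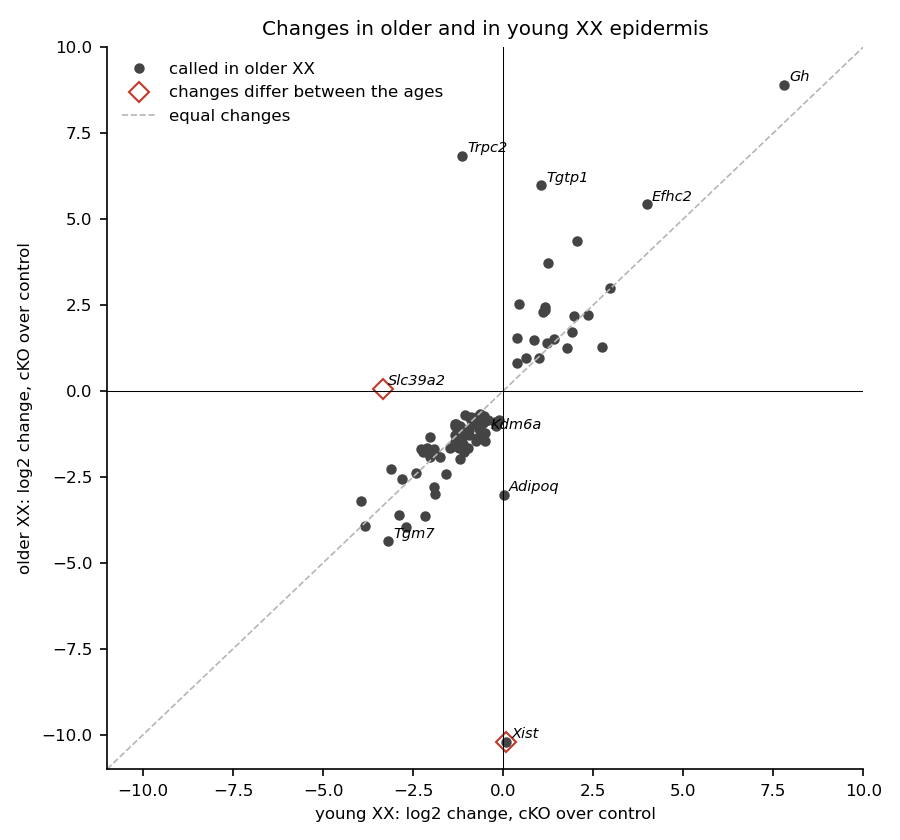
Log2 change (cKO over control) in older (vertical axis) against young XX epidermis (horizontal axis) for the 94 genes called in older XX epidermis and tested at both ages, with open diamonds for the 2 genes whose changes differ. All but 3 of the 94 have the same sign at both ages, Xist at -10.20 and 0.07 lies farthest from the line of equal changes, and Slc39a2 at 0.07 and -3.35 is not itself called in the older comparison.

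Of the 98 calls 4 belong to overlapping genes whose counts went in opposite directions, so that which of the 2 genes a read was given to is uncertain. Snurf, which is read from the same imprinted transcript as Snrpn, had 0 in both cKO libraries, against 144 and 142 in control libraries, and Snrpn had 174 and 155 in cKO libraries, against 8.62 and 5.77 in control libraries. Their sum was 174 and 155 in cKO libraries, against 153 and 148 in control libraries. Trpc2, an ion channel of the vomeronasal organ, had 106 and 123 in cKO libraries, against 0 in both control libraries. Xntrpc, a transcript that joins it to Xndc1, had 8.60 and 6.62 in cKO libraries, against 108 and 146 in control libraries. The sum of Trpc2, Xntrpc and Xndc1 was 962 and 1106 in cKO libraries, against 966 and 1035 in control libraries. The call of Trpc2 was lost without cKO replicate 2 (adjusted p = 0.0547) and that of Xntrpc without control replicate 2 (adjusted p = 0.0640). The sums moved far less than their parts, and 94 calls are left without these 4.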

How the data were processed

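RNA of mouse epidermis was sequenced after poly(A) selection with a kit that keeps the strand, per the labels' protocols. The authors deposited normalized read counts per gene and library, a signal value scaled for depth, in 1 table per age and sex. The builds given in the submitters' processing notes are GRCm38 and mm10, and the tools are DESeq2 and STAR. The authors' deposited comparison table of the same 4 libraries gives log2 fold changes and adjusted p-values, and was used here only where named.

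The 26 gene names that a spreadsheet had turned into dates were left out, and 24946 genes were kept, 98.1% of them matched to the GENCODE annotation of GRCm38. Low values were within 0.1 step of a whole multiple for 74.8% to 88.6% of cases per library, so whole reads could not be recovered and no count test was run. Genes at 10 or more in at least 2 of 4 libraries were tested with limma 3.58.1 in R 4.3.3 (intensity trend) on log2(value + 1), with Benjamini-Hochberg adjustment at 0.05. Fold changes are on that scale, which understates those of low genes. The older minus young difference was a contrast in 1 limma fit over both XX tables, which were scaled separately. Other values came from Python 3.11.15 with scipy 1.17.1. The tests were tested on simulated data with known changes. There every gene had the same spread beyond counting noise and only genes with high values changed, so low genes and uneven spread were not covered. The count of reads per library, about 29100995 to 32110813, limits what low genes can show.

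Replicate numbers follow accession order; the labels do not state that equal numbers mark paired samples, so the block by library number is an alternative. Members and lists were chosen with earlier results of these data known. Genes were named by rule: Kdm6a, X inactivation and escape genes, the 15 largest rises and 20 largest falls without overlap, predicted names left out, up to 4 called members of each of 35 lists or otherwise the 2 highest, up to 10 called X-linked genes, genes at 1 or less in a whole group and 50 or more in the other, and called differences from young XX. Genes named outside the rule were chosen after their values were seen: the list members and X neighbours without a call that are given as examples, Mcam, Samd9l, Ehf, Ackr3, Akr1c13, Cyp2s1, Srd5a1, Acacb, Rab15, Gldc, Gpt2, Slc6a19, Frem2, Vwa1, Cspg4, Mpzl2 and P3h2, and those listed as called in all 4 fits. Alternatives were other pseudocounts, filters and scalings, no trend, a joint fit, a block by library number, and each library left out. Some list members are not reported here by name.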

Additional observations from a re-analysis of the deposited data

Results flagged for a closer look

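The log2 change of Slc39a2 was 3.42 higher in older than in young XX epidermis, 0.07 against -3.35, and limma called this difference. The log2 change of Xist in older minus that in young XX epidermis was -10.28, which was also called; both libraries labelled older cKO were near 0. Within the 4 young XX controls, the lowest Xist value, 6921, stood apart from the other three by more than Dixon's limit, which chance passes in about 1 in 20 groups.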

How the results depend on the processing

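Calls rest on 2 libraries a group and depend on the settings. The 98 calls became 1 without a filter on low values, 65 after quantile normalization, 7 without the intensity trend, and 58 to 99 with each library left out. The 25 rises became 0 without a filter on low values, 16 with a filter of 50, 16 after quantile normalization, 2 without the intensity trend, and 8 to 34 with each library left out. The 73 falls became 1 without the filter, 5 without the trend, and 40 to 81 with each library left out. Kdm6a kept its log2 change of -1.21 but lost its call without the filter (adjusted p = 0.134) and without the trend (adjusted p = 0.116); it was -1.33 to -1.09 and called with each library left out. The median of the X chromosome was 0.0746 with a filter of 50, 0.107 after quantile normalization, and 0.0747 to 0.0920 with each library left out. Lists with a called member numbered 17, or 2 without the filter, 4 without the trend, 10 in the joint fit with the young libraries, and 13 to 20 with each library left out. The 2 genes whose change differs from that in young epidermis became 3 to 5 with each older library left out. The cause of these shifts was not tested.

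With the replicate block by library number, limma called 124 rises and 307 falls, 431 genes that include all 98. The numbers are not stated to pair samples, the deviations of same-numbered libraries correlated at 0.219 over 14540 genes, and with 2 pairs this is a hint only. Of 1280 values of single genes under the alternatives 1040 stayed on their side of the threshold, 203 lost a call, 8 gained one, 29 had the other sign without a call and 0 reversed a call. Of 442 list medians 381 moved by less than the spread between replicates. The edgeR alternative was not run, since whole reads could not be recovered. Low genes, such as those near 0 in a whole group, are limited by depth.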

Other observations

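Slc39a2 was also uneven among the older XY libraries, with 1098, 191 and 338 in cKO libraries, against 926, 162 and 727 in control libraries, where the groups overlap.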
